A study of Homo sapiens with 10 samples.

Results

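The 6 genes ZEB1, ZEB2, SNAI1, SNAI2, TWIST1 and TWIST2 encode the transcription factors best known for driving epithelial-mesenchymal transition (EMT). They were followed here in a map of accessible chromatin. A peak of the deposited list belongs to a gene where the list names that gene as nearest, or where the peak lies in the gene or within 100000 bases of it on hg38. This rule gave 128 of the 161934 peaks: 45 for the ZEB pair, 58 for the SNAI pair and 25 for the TWIST pair. The choice used positions only, and no measured height.

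ATAC-seq reads open chromatin by letting the Tn5 transposase insert adapters wherever DNA is exposed. It was applied to MDA-MB-231, an established triple-negative breast cancer cell line of mesenchymal shape. Of 10 libraries, 5 carry the genotype ARID1A knockout and 5 the genotype control. ARID1A belongs to the SWI/SNF complex, which moves nucleosomes, and helps it to bind DNA. How the knockout was made, whether it is 1 clone and what the control cells received were not given in the sources used here. The list pools the series: 0 of its 17 columns hold a value per library. No difference between knockout and control was therefore measured at any of the 6 genes, depth is unknown, and counts carry no replicate error.

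EMT factors lower the genes of epithelial junctions, above all CDH1, the gene of E-cadherin, and so let cells detach and move. ZEB and SNAI proteins are zinc finger repressors that bind the E-box CAGGTG, read CACCTG on the other strand. TWIST proteins are basic helix-loop-helix factors that bind E-boxes of the wider form CANNTG as dimers. The miR-200 microRNAs repress ZEB1 and ZEB2 transcripts, and the ZEB proteins in turn repress the miR-200 genes.

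The promoters below show where a peak did and did not lie at a start. RefSeq (GRCh38.p14) promoters of 300 bases, 250 before and 50 after a start, were found for 3 of the 6 genes: ZEB1, with 7 starts, ZEB2 and TWIST2. Capitals mark the E-box CAGGTG or CACCTG. Shown are the outermost ZEB1 promoter (chr10:31318167-31318466, plus strand), the promoter of ZEB1 start 3 (chr10:31318966-31319265, plus strand), the ZEB2 promoter (chr2:144520070-144520369, minus strand) and the TWIST2 promoter (chr2:238847835-238848134, plus strand).
ZEB1 outermost: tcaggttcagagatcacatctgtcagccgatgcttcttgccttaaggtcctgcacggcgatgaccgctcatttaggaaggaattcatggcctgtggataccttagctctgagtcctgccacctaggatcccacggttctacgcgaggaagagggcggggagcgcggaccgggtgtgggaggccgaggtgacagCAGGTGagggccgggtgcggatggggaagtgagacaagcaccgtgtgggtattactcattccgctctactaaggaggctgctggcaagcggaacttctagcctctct
ZEB1 start 3: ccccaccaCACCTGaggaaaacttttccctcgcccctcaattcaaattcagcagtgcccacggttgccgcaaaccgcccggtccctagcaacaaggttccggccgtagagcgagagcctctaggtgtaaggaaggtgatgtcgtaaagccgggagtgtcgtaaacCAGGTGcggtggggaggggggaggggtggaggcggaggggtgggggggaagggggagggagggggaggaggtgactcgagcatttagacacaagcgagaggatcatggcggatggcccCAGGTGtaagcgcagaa
ZEB2: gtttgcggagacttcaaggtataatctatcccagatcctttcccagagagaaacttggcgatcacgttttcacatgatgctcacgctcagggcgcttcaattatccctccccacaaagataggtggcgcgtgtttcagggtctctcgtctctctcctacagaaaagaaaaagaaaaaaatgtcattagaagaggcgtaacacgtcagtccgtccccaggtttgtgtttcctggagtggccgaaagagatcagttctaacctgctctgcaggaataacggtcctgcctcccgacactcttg
TWIST2: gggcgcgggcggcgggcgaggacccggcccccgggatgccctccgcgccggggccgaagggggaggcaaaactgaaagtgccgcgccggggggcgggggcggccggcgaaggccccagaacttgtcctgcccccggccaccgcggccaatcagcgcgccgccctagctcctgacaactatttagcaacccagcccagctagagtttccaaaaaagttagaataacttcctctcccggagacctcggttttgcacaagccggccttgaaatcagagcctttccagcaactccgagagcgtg
Peaks covered 275 of the 300 bases of the outermost ZEB1 promoter and 300 of 300 in both the promoter of ZEB1 start 3 and the ZEB2 promoter. The TWIST2 promoter had 0 bases in a peak. The outermost ZEB1 promoter held 1 CAGGTG-type E-box and that of start 3 held 3, while the ZEB2 and TWIST2 promoters held 0. Start 3 is shown because it held the most of the 7 ZEB1 promoters, and the other 5 held 0. Beside these, among the single outermost promoters of 15811 protein-coding genes, 19.9% held at least 1 on either strand and 0.588% held 3 or more. The wider form CANNTG, which takes in CAGGTG, was present in 64.6% of them. It occurred 2 times in the outermost ZEB1 promoter, 3 times at start 3, 1 time in ZEB2 and 0 times in TWIST2. The AP-1 motif TGANTCA was in 5.70% of all promoters and in 0 of the 9 promoters of these genes. A match of letters is a description and no evidence of binding.

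Start peaks split the 6 genes by pair. ZEB1, ZEB2, SNAI1 and SNAI2 each had a peak over the outermost 5' boundary of the gene. TWIST1 and TWIST2 had none within 1000 bases of theirs. That is 4 of 6 genes, and among 18701 protein-coding genes 74.1% had a start peak by the same definition, so the count of 4 is no result about the group. The 18701 are those of 19970 genes whose strand the tables give, and TWIST1 is not among them. For 2889 of them the strand came from a transcript that the list names as nearest to a peak. The set, and the shares of starts taken over it, thus lean toward genes near peaks. The split was the same with a window of 3000 bases, where the share over all genes was 82.1%, and when the peak had to cover the start (65.0%). It was also the same with any transcript start that the list names (80.4%). The list names a start only where a peak lies nearest to it and names none for TWIST1, so this setting could not change the result there. With peaks under the median length of 539 bases left out, ZEB2 lost its start peak, and 3 of 6 remained beside 68.6% of all genes. In the gene body, 5 of the 6 genes had a peak, all but TWIST1, beside 86.2% of protein-coding genes.

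**Figure D1:**
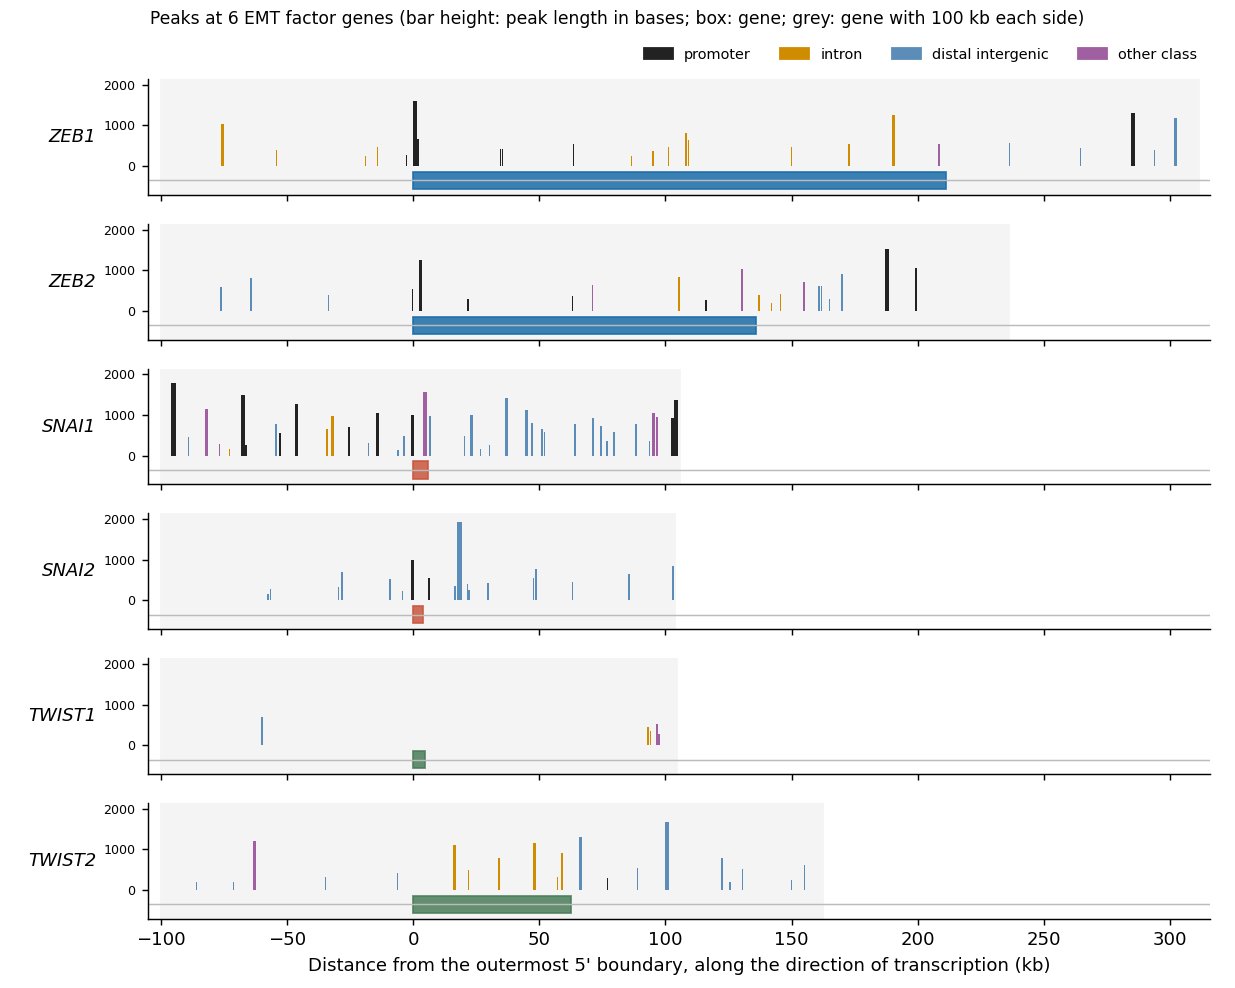
Peaks at the 6 genes by distance from the outermost 5' boundary, in kb along the direction of transcription. Bar height is peak length in bases, peaks under 0.5 kb are drawn 0.5 kb wide, the box is the gene and grey marks the gene with 100 kb on each side. A peak stands at 0 in ZEB1, ZEB2, SNAI1 and SNAI2, while the TWIST1 panel is empty for 59.4 kb upstream and 92854 bases downstream.

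ZEB1 (ENSG00000148516) lies on chromosome 10 at 31318417 to 31529804, plus strand, and spans 211388 bases. Its start peak, 31318192 to 31319801, was 1610 bases long and the longest of its 24 peaks. A second promoter peak of 666 bases followed at 31320009 to 31320674. Together they overlapped 5 of the 7 RefSeq promoters, and the 2 innermost starts lay 527 and 986 bases beyond. The start peak also lay over the antisense RNA gene ZEB1-AS1 (31307717 to 31320447), which runs out of the same region, and which of the genes it marks was not tested.

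The body of ZEB1 held 14 peaks, of which 5 were classed as promoter, 8 as intron and 1 as 3' UTR. The promoter class takes any peak within 3000 bases of an annotated transcript start, so it includes 3 peaks at starts deep inside the gene, the nearest of which lay 34351 bases from the outermost start. Of the 8 intron peaks, 5 fell in intron 5 of the 12 introns of the transcript the list uses, 2 in intron 6 and 1 in intron 8. The longest, 1260 bases at 31508089 to 31509348, was 189672 bases into the gene. A stretch of 40.2 kb inside the gene, from 31427851 to 31468058, had no peak. Peaks classed as intron thus lay in the middle and the 3' part of the gene, while the 3 at inner starts lay closer to its 5' end.

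The flanks of ZEB1 held 5 peaks upstream and 5 downstream, at the lower quartile of protein-coding genes, of which 22.7% had fewer than 10. Outside promoters ZEB1 had 8, and 43.8% of genes had fewer. The nearest upstream peak, of 258 bases, lay 2640 bases before the start. Downstream, the longest peak (1317 bases, 31603119 to 31604435) stood at the start of the neighbouring gene model LOC124906892.

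ZEB2 (ENSG00000169554) lies on chromosome 2 at 144384081 to 144520119, minus strand, over 136039 bases. Its start peak, 144520045 to 144520575, was short at 531 bases. A longer peak of 1260 bases, 144516531 to 144517790, began 2329 bases inside the gene and covered another annotated start. The start peak also overlapped ZEB2-AS1, an antisense RNA gene. At ZEB1 the outermost start carried the longest peak, and at ZEB2 an inner start carried a longer one than the outermost.

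The ZEB2 body held 8 peaks: 5 promoter, 1 intron, 1 exon and 1 3' UTR by class. A stretch of 41.2 kb inside the gene, between 144457082 and 144498290, was without a peak. The gene is longer in the annotation that the list uses than in RefSeq. The list placed 4 intron peaks in ZEB2 transcripts, and 3 of them lay beyond the RefSeq 3' end, the closest at 840 bases. Downstream of the gene stood 10 peaks and upstream 3, and the densest 50 kb (9 peaks, from 144349658) were at that 3' side. The nearest upstream peak was 33289 bases away.

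Set side by side, the ZEB genes resembled each other in body density. ZEB1 held 0.66 body peaks per 10000 bases and ZEB2 held 0.59. The median of 10990 protein-coding genes of at least 20000 bases was 0.72 (interquartile range 0.39 to 1.19). Both thus lay just below the middle of long genes, with 46.0% and 40.8% of them lower. In the flanks ZEB1 held 10 peaks and ZEB2 13, and 22.7% and 34.4% of protein-coding genes had fewer. Outside promoters the flanks held 8 and 11, and 43.8% and 64.5% of genes had fewer. Of the 13 at ZEB2, 4 were tied by the list to ZEB2 itself, so the flank count depends on the 3' end taken for the gene.

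SNAI1, which encodes Snail (ENSG00000124216), lies on chromosome 20 at 49982980 to 49988886, plus strand, in 5907 bases. Its start peak of 1005 bases covered 49982325 to 49983329. A longer peak of 1572 bases, 49986998 to 49988569, lay at the 3' end and was classed as 3' UTR. The list held another of 979 bases just past the gene, 227 bases from its end. Peaks covered 32.5% of the SNAI1 body. Among 2321 protein-coding genes of 3000 to 7000 bases the median held 1 body peak, and SNAI1 held 2. At least 1 was found in 72.2% of genes of that size, among them SNAI1 and SNAI2 and not TWIST1.

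No other of the 6 genes had as many peaks around it as SNAI1. It had 17 upstream and 21 downstream, and 97.6% of protein-coding genes had fewer than these 38. Of the downstream peaks, 17 were classed as distal intergenic, and 11 peaks were tied by the list to ENSG00000231265, which by position is TRERNA1 (50040707 to 50041629), a long non-coding RNA described as an enhancer-like RNA of SNAI1. The longest in this stretch were 1420 bases at 50019367 to 50020786 and 1115 bases at 50027399 to 50028513. Upstream, the 3 longest peaks stood at other genes: 1784 bases at SLC9A8, 1482 bases at the start of SPATA2 and 1273 bases at the start of RNF114.

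The density at SNAI1 extended over its region. Within 500000 bases of the SNAI1 start lay 187 peaks, and 99.0% of genes had fewer, against a median of 79. Promoter peaks of neighbours made up 9 of the 38. Without promoter peaks 29 remained, and 99.6% of protein-coding genes, with a median of 8, had fewer. The number of gene copies in this line was not measured, at SNAI1 or at the other genes.

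SNAI2, which encodes Slug (ENSG00000019549), lies on chromosome 8 at 48917598 to 48921429, minus strand, in 3832 bases. The start peak, 985 bases at 48921230 to 48922214, was its 1 body peak. The start peaks of SNAI1 and SNAI2 differed by 20 bases in length. No peak lay at the 3' end of SNAI2, unlike SNAI1. The longest of its 18 peaks, and of all 128, was 1919 bases long at 48902234 to 48904152, in intergenic DNA 13446 bases past the gene's end.

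Around SNAI2, 16 of 17 flanking peaks were distal intergenic, with 11 downstream and 6 upstream. Fewer than 17 flanking peaks were found at 49.97% of protein-coding genes, so the number was ordinary. Outside promoters SNAI2 had 16, and 86.7% of genes had fewer. RefSeq lists 0 other protein-coding genes within 100000 bases of SNAI2, and 5 near SNAI1. The SNAI genes were thus alike in having a start peak, as both ZEB genes also had. Distal intergenic peaks were 22 of 38 flanking peaks at SNAI1 and 16 of 17 at SNAI2. They were 12 of 14 at TWIST2, 7 of 13 at ZEB2, 4 of 10 at ZEB1 and 1 of 5 at TWIST1. The SNAI genes differed in this share and in the number of flanking peaks, 38 against 17.

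**Figure D2:**
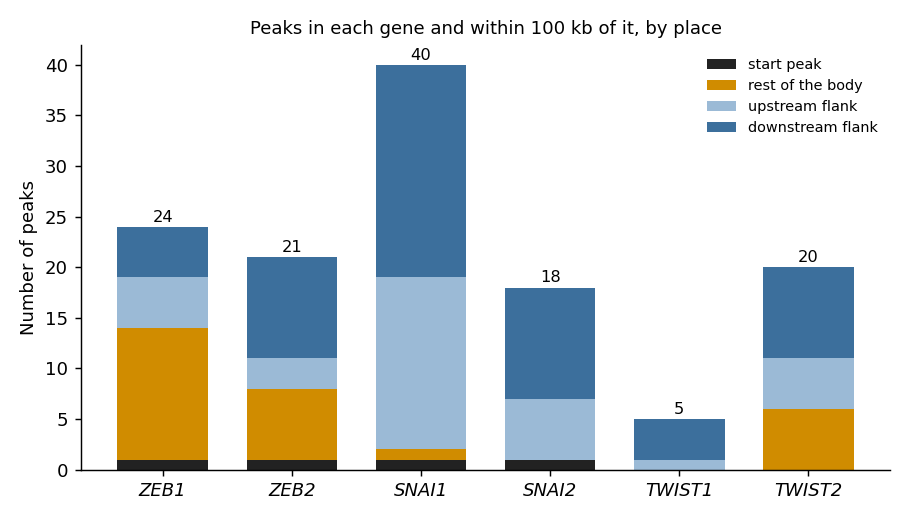
Number of peaks for each gene, stacked by place: at the start, in the rest of the body, and in the upstream and downstream flanks of 100 kb. Body peaks make up most of the ZEB1 bar, flanking peaks make up nearly the whole SNAI1 and SNAI2 bars (38 of 40 and 17 of 18), and the TWIST bars have no start peak.

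TWIST1 (ENSG00000122691) lies on chromosome 7 at 19113047 to 19117636 in 4590 bases. Its strand is in neither table used here, and its known minus orientation was taken. The gene had 0 peaks in its body and 0 at either end. The nearest peak, of 688 bases at 19177052 to 19177739, lay 59416 bases upstream. Of the 18701 protein-coding genes with a strand from the tables, which leave out TWIST1, 98.3% had a peak nearer to their start. No body peak together with no start peak was found at 10.6% of these genes.

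The peak-free stretch around TWIST1 ran from 19024783 to 19177051, which is 152269 bases. It also held FERD3L, a related basic helix-loop-helix gene, which likewise had no start peak. Of 18701 starts, 2.97% lay in a stretch at least as long. At the far side were 4 peaks of 275 to 512 bases, 88265 to 92632 bases past the 3' end. The list placed 2 of them in intron 3 of a long TWIST1 transcript, and named another gene as nearest to all 4. Within 500000 bases of the TWIST1 start there were 40 peaks, and 12.3% of genes had fewer. A missing peak says that this list holds none there and nothing of its state.

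TWIST2 (ENSG00000233608) lies on chromosome 2 at 238848085 to 238910534, plus strand, in 62450 bases. It had 6 body peaks and no start peak, a state found at 15.3% of protein-coding genes. The nearest peak to its start, of 413 bases, lay 6066 bases upstream, and 87.8% of genes had a nearer one. The first body peak began 15887 bases into the gene. The start thus lay in a peak-free stretch of 21952 bases, which holds the whole promoter printed for TWIST2, and 15.9% of starts lay in one at least as long.

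The 6 body peaks of TWIST2 were all classed as intron 1, the single intron of the transcripts that the list names. They measured 1110, 499, 797, 1161, 318 and 915 bases in order from the start. The 2 longest were at 238863972 to 238865081 and at 238895498 to 238896658. Body density was 0.96 per 10000 bases, and 64.9% of long genes were lower. The list tied 3 of the 6 to TWIST2, and the other 3 to ENSG00000227744, which by position is the non-coding RNA gene LINC01940 (238919300 to 238926269).

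Flanking peaks of TWIST2 numbered 14, with 5 upstream and 9 downstream, and 38.4% of genes had fewer. Outside promoters TWIST2 had 13, and 75.2% of genes had fewer. The longest flanking peaks were both downstream, 1681 bases at 238947916 to 238949596 and 1309 bases at 238913891 to 238915199. RefSeq lists no other protein-coding gene in this window. The TWIST genes thus shared the lack of a start peak and differed inside the gene and beside it, with 20 peaks at TWIST2 and 5 at TWIST1.

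**Figure D3:**
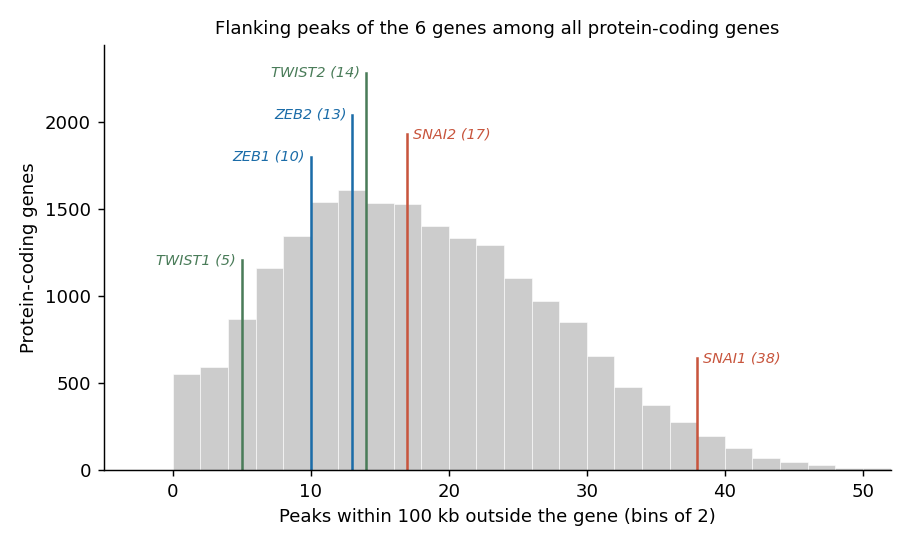
Histogram of the number of peaks within 100 kb outside the gene for 19970 protein-coding genes in bins of 2 peaks, with the 6 genes marked by lines. TWIST1 (5) lies toward the low end, ZEB1 (10) at the lower quartile, ZEB2 (13), TWIST2 (14) and SNAI2 (17) between it and the median of 17, and SNAI1 (38) lies in the upper tail.

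The order of the 6 genes depends on the length of the window, since genes of unlike length were compared. In equal windows of 100000 bases on either side of the start, SNAI1 held 38 peaks, SNAI2 17, TWIST2 15, ZEB1 12, ZEB2 8 and TWIST1 5. The median of protein-coding genes was 17, with an interquartile range of 10 to 24. SNAI1 was thus above that range, ZEB2 and TWIST1 below it, and the others inside. Within 10 kb of the start lay 5 peaks at SNAI1, 4 at SNAI2, 3 at ZEB1, 2 at ZEB2, 1 at TWIST2 and 0 at TWIST1. TWIST2 thus held more peaks than either ZEB gene within 100 kb of the start and fewer than either within 10 kb.

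The split of peaks between body and flank followed gene length, since the flanks are of 1 length for every gene. The ZEB pair had 22 peaks in the body and 23 in the flanks. The SNAI pair had 3 and 55, and the TWIST pair 6 and 19. Per 10000 bases of body the order was the reverse, with 3.08 peaks in the SNAI pair, 0.895 in the TWIST pair and 0.633 in the ZEB pair. The SNAI value rests on 3 peaks counted by any overlap, and only 200 bases of SNAI2 lay in its peak. With peaks counted by their midpoint, SNAI1 had 1 body peak and SNAI2 had 0, while ZEB1 had 14, ZEB2 7 and TWIST2 6. The bodies add up to 9739 bases in the SNAI pair, 67040 in the TWIST pair and 347427 in the ZEB pair. Intron peaks inside the RefSeq span numbered 9 in the ZEB pair, 0 in the SNAI pair and 6 in the TWIST pair. The SNAI share of the 128 peaks was 45.3% (95% Wilson interval 37.0 to 53.9), the ZEB share 35.2% and the TWIST share 19.5%. Such an interval takes in counting error alone. With 2 genes a pair, no test of pairs was made, and within the SNAI and TWIST pairs 1 gene, SNAI1 and TWIST2, held most of the peaks.

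The list's own naming of the nearest gene gave a smaller set. It tied 43 of the 128 peaks to the 6 genes: 15 to ZEB1, 10 to ZEB2, 7 to SNAI1, 7 to SNAI2, 4 to TWIST2 and 0 to TWIST1. Of the 31 body peaks, 12 of 14 were tied to ZEB1, 6 of 8 to ZEB2 and 3 of 6 to TWIST2. The peaks at SNAI1 and SNAI2 bodies were tied to those genes. Peaks inside a long gene were thus often given to another gene with a nearer start.

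Peak length differed little between the pairs. The median was 542 bases in the ZEB pair (interquartile range 390 to 806), 655 in the SNAI pair (372 to 979) and 509 in the TWIST pair (310 to 797). Over the whole list the median was 539 (346 to 843). Peaks of at least 1000 bases were 9 of 45 in the ZEB pair, 12 of 58 in the SNAI pair and 5 of 25 in the TWIST pair, and 16.9% of the list. By gene the median ran from 456 bases at TWIST1 to 770 at SNAI1. In class, 65.5% of SNAI peaks and 52% of TWIST peaks were distal intergenic, and 24.4% of ZEB peaks, against 29.6% of the list.

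**Figure D4:**
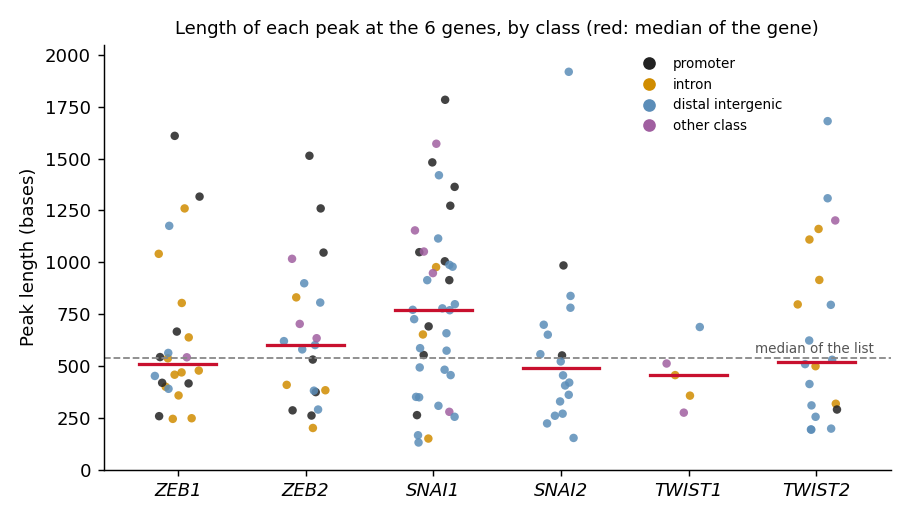
Length in bases of each of the 128 peaks by gene, coloured by annotation class, with the median of each gene in red and the median of the whole list (539 bases) dashed. The longest point is the intergenic SNAI2 peak of 1919 bases, and the TWIST1 points reach at most 688 bases.

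CpG content set the TWIST2 promoter beside promoters that commonly have a peak. CpG-rich promoters are as a rule open in most cell types. The TWIST2 promoter held 29 CpG dinucleotides in 300 bases, the outermost ZEB1 promoter 17 and the ZEB2 promoter 14. Of 5135 promoters with at least 29 CpG, 88.4% were overlapped by a peak, against 68.3% of all 15811. Promoters with 4 CpG or fewer had one in 17.3%. TWIST2 was thus among the minority of such CpG-rich promoters without a peak, while the outermost ZEB1 promoter and the ZEB2 promoter had a peak with fewer CpG. ZEB1 start 4, with 35 CpG, had 284 of its 300 bases in a peak.

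**Figure D5:**
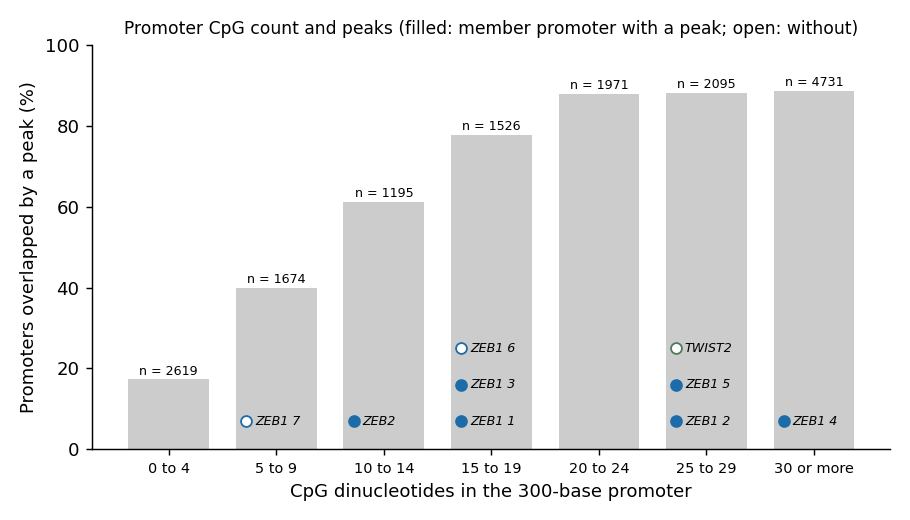
Share of protein-coding promoters of 300 bases that a peak overlaps, by number of CpG dinucleotides, with the 9 promoters of ZEB1, ZEB2 and TWIST2 placed in their bins (height of these points has no meaning). TWIST2 is an open point in a bin where 88.0% of promoters have a peak, and ZEB1 promoters 1 to 5 and ZEB2 are filled.

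The genes that induce, assist or limit EMT factors, their relatives and their targets were taken from 6 lists of 73 genes. A strand was determined for 72. Of these 72 genes 61 had a start peak, beside 74.1% of all protein-coding genes, and nothing particular to the lists is read from that count. Inducers and receptors had one in 13 of 13. The longest were at SMAD2, a TGF-beta signal carrier (2264 bases), HMGA2, a chromatin protein that raises SNAI1 and TWIST1 (2116 bases), and TGFBR1, a TGF-beta receptor (1926 bases). Corepressors that ZEB and SNAI proteins recruit had one in 12 of 12. These were led by CTBP1 (2523 bases) and CTBP2 (2041 bases), the partners of ZEB proteins, and RCOR1 (2367 bases), a partner of the demethylase KDM1A. Genes of protein turnover had one in 10 of 11, with FBXL14, a ubiquitin ligase subunit for Snail (2747 bases), GSK3B, the kinase that marks Snail for decay (2035 bases), and CSNK1E (1937 bases). SIAH1 had none, its nearest peak being 1152 bases from the start.

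The partners of TWIST proteins had start peaks in 7 of 9. They were longest at TCF12, an E protein that pairs with TWIST (2447 bases), ID1, an inhibitor of E proteins (1721 bases), and HAND1, a related factor (1418 bases). TCF4, another E protein, had none at its outermost start and 17 body peaks. HAND2 had none, and its nearest peak was 17425 bases away. The list of relatives also takes in factors of other families, PRRX1, FOXC2 and GSC. Start peaks were found in 6 of its 10 genes. SNAI3 (1920 bases), SCRT1 (1491 bases) and TCF15 (961 bases) had the longest, and FERD3L, MSC, FOXC2 and GSC had none.

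Targets that EMT factors lower or raise had start peaks in 13 of 17. OVOL2, an epithelial factor that represses ZEB1 (2224 bases), OCLN, a tight junction gene (1998 bases), and CLDN4, a claudin (1820 bases), had the longest, and all 3 are genes that EMT lowers. Those without were CDH1, with its nearest peak 4336 bases from the outermost start, CRB3, CDH2 and SPARC. CDH1 and SPARC had a peak at another start that the list names. Of the 4 mesenchymal targets, VIM (1551 bases) and FN1 (1494 bases) had one, and CDH2 and SPARC did not. Marker genes of the line, VIM, AXL, CD44 and EGFR, had one in 4 of 4. Luminal markers had one in 3 of 4, with none at ESR1, epithelial markers in 2 of 3, with none at CDH1, and leukocyte markers in 0 of 2, beside 74.1% of all protein-coding genes. With any start that the list names, where the share of all genes was 80.4%, the counts were 4 of 4, 3 of 3 and 1 of 2, since ESR1, CDH1 and PTPRC had a peak at another start.

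The miR-200 family links to ZEB1 and ZEB2 through its seed, bases 2 to 8 of the mature microRNA, in capitals here as RefSeq gives it. The family falls into 2 seed groups. The seed AAUACUG is shared by 3 members and the seed AACACUG by 2.
hsa-miR-200b-3p: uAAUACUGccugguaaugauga
hsa-miR-200a-3p: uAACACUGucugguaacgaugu
hsa-miR-429: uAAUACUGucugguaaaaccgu
hsa-miR-200c-3p: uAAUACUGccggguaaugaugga
hsa-miR-141-3p: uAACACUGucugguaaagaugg
None of the 5 mature sequences lay in a peak. A hairpin's end is not the start of its primary transcript, so these are distances to the hairpin and not start peaks. A peak lay within 1000 bases of the 5' end of MIR200B (735 bases away, 231 bases long) and of MIR141 (877 bases away, 373 bases long). It lay 1494 bases from MIR200A, 2636 from MIR429 and 1089 from MIR200C. The MIR200C and MIR141 locus on chromosome 12 had a peak of 1839 bases at 6960772 to 6962610, classed as promoter. Of the other microRNA genes in the list, MIR203A had a peak within 1000 bases of the hairpin, and MIR205 and MIR34A had none. In all, 3 of 8 had one. The share over all microRNA genes was not computed, so nothing particular to these genes is read from the count.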

How the data were processed

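ATAC-seq was made from 10 MDA-MB-231 libraries, 5 ARID1A knockout and 5 control. Bowtie2 2.3.5.1 served for alignment and MACS2 2.2.6 for peak calling on hg38, per the submitters' processing notes. The caller's threshold, any shift of reads and the merging of libraries were not given in the sources used here, and they set the number and edges of peaks. The deposited list gives, per the file headers, positions and lengths in bases, a class, and the distance to the nearest transcript start, used here as a score in bases. It has 0 columns per library, so depth per library is unknown and no test was run.

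Gene spans came from RefSeq GRCh38.p14. Strand came from the promoter table (15812 protein-coding genes) or from list transcripts that shared at least 0.5 of their union with the gene (2889). Both gave the same strand for 11580 of 11638 genes. Of 19970 protein-coding genes 18701 had a strand, and shares that concern starts are taken over these. A start peak lies within 1000 bases of the outermost 5' boundary. Wilson 95% intervals were computed for the shares of the 3 pairs, and that of the SNAI pair is given. Shares of genes and promoters carry none. Named genes are the 6, their neighbours within 100000 bases and, from each list, at most 3 chosen by start peak length and at most 5 that lack one. VIM and FN1 among the targets were added after their values were seen. Members and lists were chosen with earlier results of these data known. Lookups were tested on simulated data. Python 3.11.15, numpy 2.4.6 and pandas 2.3.3 were used.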

Additional observations from a re-analysis of the deposited data

How the results depend on the processing

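No paired analysis was possible because peaks were deposited without values for single libraries, and for the same reason no replicate could be left out. The 128 peaks of the 6 genes became 80 with a flank of 50000 bases, 59 with 25000 bases, 69 without peaks shorter than the median, and 43 when chosen by the list's own gene identifier. These settings take fewer peaks by construction. The count of genes with a start peak was 4, or 3 without shorter peaks, since the ZEB2 start peak of 531 bases is below the median of 539. The share of the SNAI pair, 45.3%, ran from 41.25% with a flank of 50000 bases, where the ZEB pair led with 43.8%, to 52.2% without shorter peaks. Without promoter peaks, an alternative chosen after seeing the data, it was 45.5%. MicroRNA genes with a peak numbered 3 of 8, then 7 with 3000 bases and 1 without shorter peaks. No share over all microRNA genes was computed to set beside these. With strand from the promoter table alone, also added later, relatives had 3 of 5 and targets 7 of 10, since fewer genes were counted. The other 41 of 49 values under alternatives, for the group, the pairs and the lists, stayed within 1.5 times the count or inside the interval. The ZEB share with a flank of 50000 bases lay at the upper limit of its interval, which takes in counting error alone. Of 114 values for single genes 29 moved further, among them flank counts of all 6 genes and the body counts of SNAI1 and SNAI2 by midpoint. Depth is unknown, so no limit of detection can be given.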
